A study of Bos taurus with 12 samples.

Results

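CpG island shores and shelves are the stretches of DNA on either side of a CpG island. A tile of 500 bp counted as a shore tile when its nearest edge lay 1 to 2000 bp from the edge of its island. It counted as a shelf tile at 2001 to 4000 bp. The island was the one given as closest feature in the deposited annotation. For some tiles another listed island lay nearer or overlapped the tile. The rule took autosomal tiles whose closest annotated feature was a CpG island, and left out 5 dense stretches of the table (chromosome 1 below 0.7 Mb, chromosome 6 from 5 to 6 Mb, chromosome 14 from 13 to 14 Mb, chromosome 18 from 57 to 57.5 Mb and chromosome 21 from 32.5 to 33.5 Mb). It used position alone and no measured value. It found 413 tiles of the 7290 in the authors' deposited table, 329 in shores and 84 in shelves. They flank 87 islands on 23 chromosomes, of which 84 have shore tiles, 14 have shelf tiles and 11 have both. Flanks without a listed tile enter no count or share below, and how tiles came to be listed is not known here. The shares therefore describe listed tiles and not shores or shelves in general.

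The study compared sperm DNA of bulls (Bos taurus) in a group labelled low BFI (6 samples) and a group labelled high BFI (6 samples). The labels do not expand the abbreviation BFI, and the series description names bull fertility as the subject. They give no breed, age or treatment, nor whether samples came from separate bulls. Methylation was read with EM-seq, a whole-genome method that marks unmethylated cytosines by enzymes and not by bisulfite. The deposited values are the authors' comparison of the groups: for each tile a difference in methylation, read as percentage points, a p-value and a q-value. The direction of subtraction is not stated in the headers or labels, so signs stand as deposited and neither group is called the more methylated. No levels, coverage or values of single samples were used, so depth is unknown and no spread between samples can be set beside a difference.

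CpG islands are stretches rich in the dinucleotide CG, often at the start of genes, and most of them are free of methylation in sperm as in other cells. In mammals most CG sites outside islands are methylated, and the level climbs across the shore, so that shores hold the border between both states. Shores are known as places where methylation varies between tissues, while shelves lie further into the methylated surroundings.

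Differences between the groups were small in shores and larger in shelves. The median size of the difference, with the sign dropped, was 1.04 percentage points over the 329 shore tiles and 2.08 over the 84 shelf tiles. With the nearest tile of each island and class alone it was 0.465 in shores (84 tiles) and 2.16 in shelves (14 tiles). Tiles of the same autosomal stretches that overlap an island had a median size of 0.457 percentage points. The 892 tiles whose closest feature is an island more than 4000 bp away had 2.43. A q-value under 0.05 at any difference was listed for 202 of 329 shore tiles (61.4%) and for 71 of 84 shelf tiles (84.5%). Over all listed tiles that share was 71.8%, so the shores lie below it and the shelves above it. A given q stands for unlike p-values across chromosomes. A deposited p of 0.131 has a q of 0.000669 on chromosome 28, where all 11 shelf tiles passed. One of 0.145 has a q of 0.165 on chromosome 22. With Benjamini-Hochberg adjustment of the deposited p, 53.5% of shore and 69.0% of shelf tiles passed. No test of shores against shelves was made, because 309 of the 413 tiles share bases with the member tile before them and no value per sample was used.

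No shore or shelf tile reached a difference of 10 percentage points at any q-value, a size that 2.78% of all listed tiles reached at a q under 0.05 (203 tiles). That share includes the left-out stretches. Of autosomal tiles outside them that are neither shore nor shelf, 44 of 3317 beyond the first 500 kb of the chromosomes reached it. Within the first 500 kb, where 200 of the 413 shore and shelf tiles lie, 0 of 1080 did. With a minimum of 5 percentage points, 8 shore tiles (2.43%) and 10 shelf tiles (11.9%) passed, against 15.4% of all listed tiles. Of the autosomal tiles outside the left-out stretches that are neither shore nor shelf, 67.5% had a q under 0.05 and 10.1% passed the minimum of 5 percentage points. The 18 tiles belong to 6 islands, and 4 of those islands lie on chromosomes 25 and 3. Without chromosome 25, 3 shore and 5 shelf tiles passed, and without the first 500 kb of each chromosome 1 and 2 did. All 413 tiles were classed by the authors as downstream of the island, whichever side they lay on.

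Negative differences were the more frequent sign in both classes. Among tiles with a q under 0.05, 147 of 202 shore tiles (72.8%) and 52 of 71 shelf tiles (73.2%) were negative, against 77.8% of such tiles in the whole table. Among autosomal tiles outside the left-out stretches, shores and shelves included, it was 71.3%. As shares of all tiles, 44.7% of shore and 61.9% of shelf tiles were negative with that q, and 55.9% of all listed tiles. Positive tiles with that q made up 16.7% of shores, 22.6% of shelves and 15.9% of all listed tiles. Over autosomal tiles outside the left-out stretches those shares were 48.1% negative and 19.3% positive. At 5 percentage points or more, 7 shore tiles were negative and 1 positive, while the shelf tiles were split into 5 negative and 5 positive. The shares over all listed tiles were 14.3% negative and 1.12% positive. The 5 negative shelf tiles overlap one another beside a single island on chromosome 25. The 5 positive ones lie beside 1 island on chromosome 20 and 1 on chromosome 3. Many tiles passed the q-value with little change: 39 of the 202 shore tiles and 12 of the 71 shelf tiles differed by less than 1 percentage point.

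In steps of 500 bp the median size did not climb evenly with distance. It was 0.801 percentage points for the 152 tiles within 500 bp of the island, 1.51 at 501 to 1000 bp, 0.961 at 1001 to 1500 bp and 1.44 at 1501 to 2000 bp. In the shelves it was 2.46 percentage points at 2001 to 2500 bp, 1.80 at 2501 to 3000 bp, 1.33 at 3001 to 3500 bp and 2.37 at 3501 to 4000 bp. The highest value lay just past the 2000 bp limit, where 29 tiles of 10 islands were listed. The signed median was negative in every step except the last, where 11 tiles of 5 islands had a median of 0.74 percentage points.

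**Figure D1:**
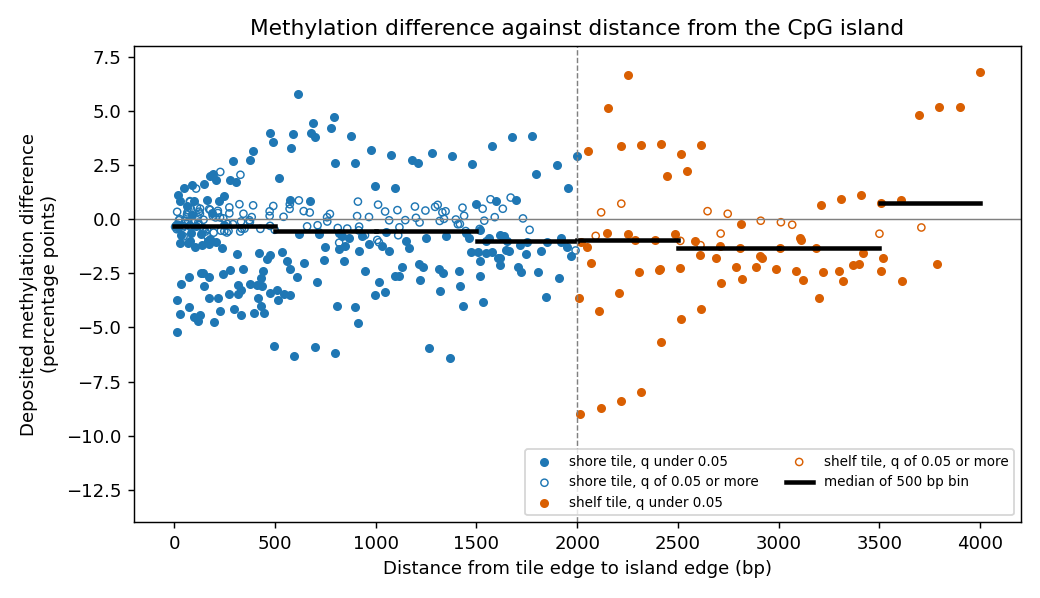
Deposited methylation difference (percentage points) of each shore and shelf tile against the distance in bp from the tile's edge to the island's edge. Filled points have a q under 0.05, black bars are medians in steps of 500 bp, and the dashed line marks the 2000 bp limit. The tiles lowest on the axis, at -8.99 to -8.00 percentage points, stand just beyond that limit, and the highest, at 6.79, stands at its far end.

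The tiles next to each distance limit are given as a description. Just inside 2000 bp, the authors' deposited table lists a tile on chromosome 4 at a distance of 1992 bp at -1.45 percentage points (q = 0.0510). The other, on chromosome 20 at 1998 bp, is given 2.91 (q = 3.14e-05) by the authors' deposited table. Just outside, at 2008 bp on chromosome 29, the authors' deposited table has -3.63 percentage points (q = 4.78e-34). The next, at 2016 bp on chromosome 25, is at -8.99 (q = 2.67e-25) per the authors' deposited table and is the largest of all shelf values. At the outer limit, tiles at 3898 and 3998 bp on chromosome 20 have 5.20 and 6.79 percentage points in the authors' deposited table. Tiles at 4016 and 4116 bp on chromosome 25, outside the limit, have -6.31 and -6.40 there.

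Shore tiles near the start of the chromosome sequence had larger differences than other shore tiles. Cattle autosomes are acrocentric, with the centromere near one end. The first 500 kb of the chromosome sequences held 200 of the 413 tiles (48.4%), from 13 islands on 8 chromosomes, against 24.6% of the autosomal tiles outside the left-out stretches that are neither shore nor shelf. There the median size was 2.48 percentage points in shores (147 tiles) and 2.23 in shelves (53 tiles). Further along the chromosomes it was 0.570 in shores (182 tiles) and 1.81 in shelves (31 tiles). The larger median of the shelves was thus found beyond 500 kb and not within it. Those 31 shelf tiles flank 7 islands, and 11 of them flank chr28:503914-504314, just past the limit. Another 5 flank chr3:21317310-21317785, and 3 flank chr3:21078253-21078771. Shelf means of these islands were -1.64, 3.35 and 4.98 percentage points. Those of the other islands beyond 500 kb were -0.87, -1.29, -0.35 and -2.02. The share of tiles with a q under 0.05 followed the same split, with 85.0% of shore and 84.9% of shelf tiles in the first 500 kb. Beyond it, 42.3% of shore tiles and 83.9% of shelf tiles passed. Of the autosomal tiles outside the left-out stretches that are neither shore nor shelf, 79.7% passed in the first 500 kb and 63.5% beyond it. Among tiles that overlap an island, 81.7% and 55.6% did. The 500 kb limit was chosen after the values had been seen.

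**Figure D2:**
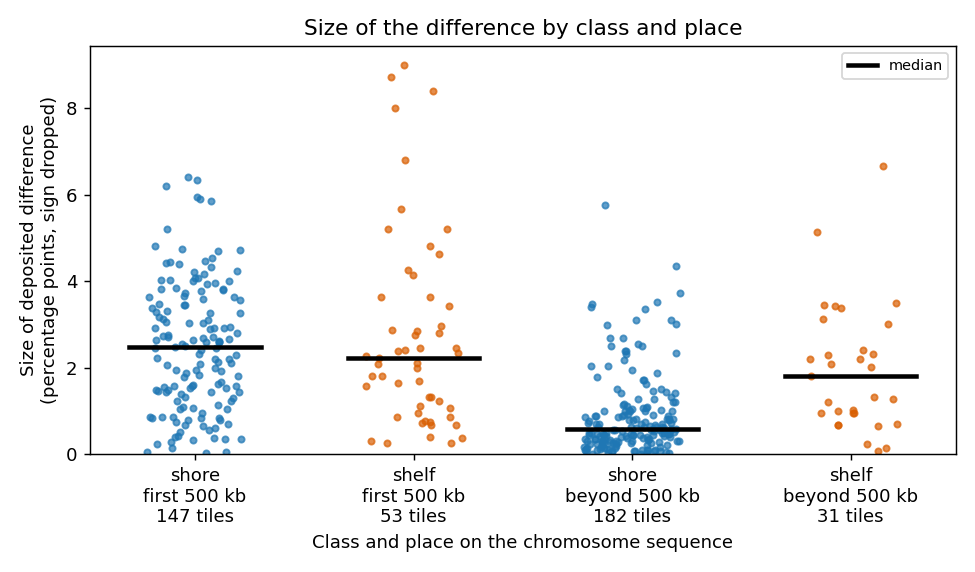
Size of the deposited difference (percentage points, sign dropped) of each tile by class and place on the chromosome sequence, with the median as a black bar and a small sideways scatter for legibility. Shores beyond 500 kb sit low, with a median of 0.570, while the other groups have medians of 1.81 to 2.48.

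Tiles that overlap an island and tiles of no island flank were also larger near the chromosome start. For island tiles the median size was 1.71 percentage points in the first 500 kb (115 tiles) and 0.425 beyond it (950 tiles). For all autosomal tiles outside the left-out stretches that are neither shore nor shelf it was 2.18 and 0.743. What else differs between these stretches, such as coverage or repeat content, was not tested.

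A few islands held many of the tiles. The 4 islands with the most tiles held 131 of the 413 (31.7%), while 68 of the 87 islands had 1 to 4 tiles. They lie on chromosome 16 at chr16:184347-184782 (41 tiles), on chromosome 29 at chr29:24757-25993 (32 tiles) and on chromosome 25 at chr25:8678-9904 and chr25:12174-12985 (29 tiles each). An island at chr13:116910-117334 followed with 17 tiles. All positions are those of the deposited table, whose builds are named ARS-UCD1.2 and bosTau9 in the submitters' processing notes.

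Neighbouring islands near the start of chromosome 25, called 25a (chr25:8678-9904) and 25b (chr25:12174-12985) here, followed chromosome 13 in the size of their negative shore values, and 25b had the largest negative shelf value. On the lower side of 25a all 18 tiles were positive, from 0.83 to 4.21 percentage points, and 17 of them had a q under 0.05. On its upper side all 11 tiles were negative, from -6.34 to -2.64, and all had a q under 0.05. The means of the sides were 3.06 and -4.75 percentage points, so the mean over the flanks of 25a, 0.10, describes neither side. The largest values in the authors' deposited table are 4.21 (q = 1.85e-15) for the tile from 7401 to 7900 and -6.34 (q = 1.21e-23) for the tile from 10501 to 11000. The tiles that overlap 25a ranged from -4.68 to 1.03 percentage points.

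All 29 flanking tiles of 25b were negative, and 27 had a q under 0.05. The shore mean was -2.82 percentage points over 20 tiles and the shelf mean -6.03 over 9 tiles. On the upper side the values did not change steadily. In the authors' deposited table the tile 16 bp from the island is at -5.20 percentage points (q = 9.78e-18), that at 916 bp has -0.52, that at 1616 bp has -1.81 and that at 2016 bp has -8.99. From there they returned to -2.76 at 2816 bp in the authors' deposited table. The 13 tiles that overlap 25b, with a mean of -3.90, lay between -5.50 and -3.18. Every shore tile listed between both islands, in the upper flank of 25a and the lower flank of 25b, was negative. The nearest gene listed for either is ENSBTAG00000023249, an ID without a name in the table, at 13061 bp from 25a and 9980 bp from 25b.

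**Figure D3:**
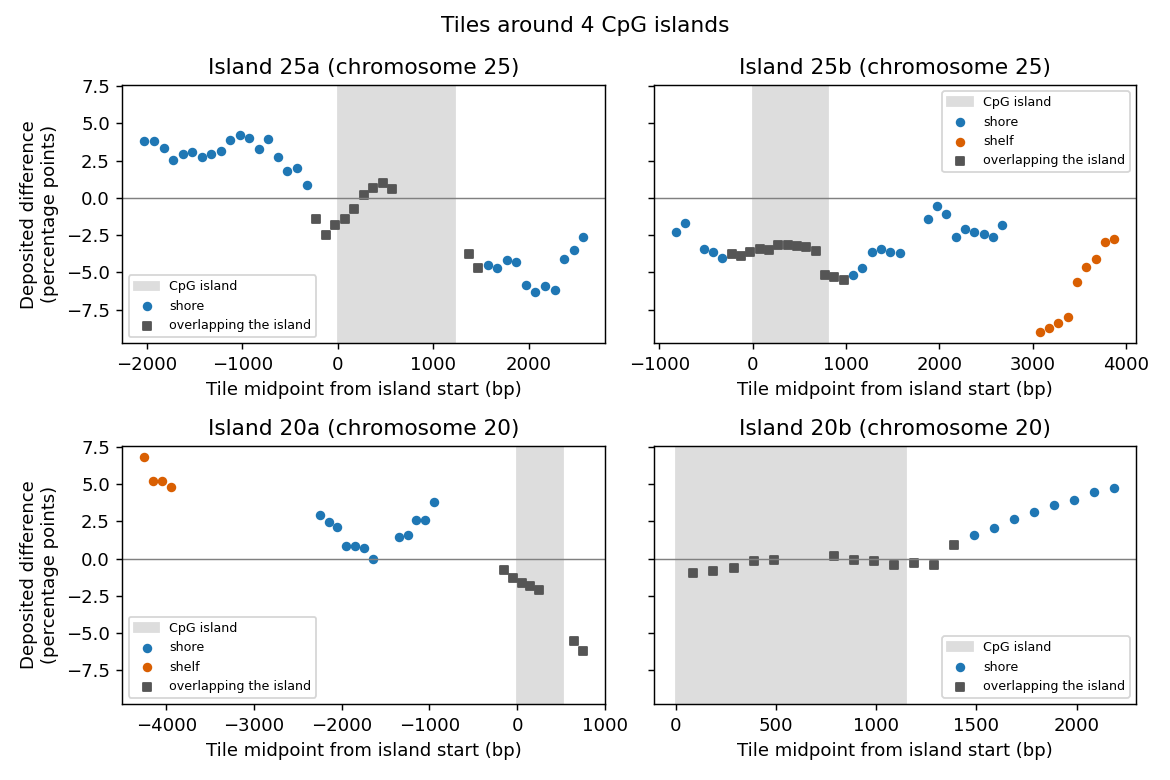
Deposited difference (percentage points) of tiles around the 4 islands called 25a, 25b, 20a and 20b, against the distance of the tile's midpoint from the island's start in bp. The island is shaded, squares are tiles that overlap it and circles are shore and shelf tiles. Differences are positive below 25a and negative above it, and all those around 25b are negative. Flanking tiles of 20a and 20b lie on a single side of each and are positive except for 1 tile at -0.02.

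A pair of islands on chromosome 20, called 20a (chr20:112298-112821) and 20b (chr20:115662-116810), had mostly positive flanking tiles, listed on a single side of each. Tiles that overlap them had negative means. Of the 16 flanking tiles of 20a, all on its lower side, 15 were positive with a q under 0.05, and the remaining one stood at -0.02. The shore mean was 1.82 percentage points (12 tiles) and the shelf mean 5.50 (4 tiles). From 107801 to 108300 the authors' deposited table gives 6.79 percentage points, the largest positive shelf value (q = 1.42e-21). The smallest q-value of a positive shelf tile in the authors' deposited table, 1.42e-34 at 5.20 percentage points, was that of the next tile on the grid. The 7 tiles that overlap 20a were negative, with a mean of -2.76 percentage points. The most negative of them, at -5.52 and -6.18, extend mostly above the island, where no flanking tile is listed.

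Beside 20b all 8 tiles, on its upper side, were positive, and each had a q under 0.05. The values climbed with distance from 1.58 percentage points at 91 bp to 4.72 at 791 bp in the authors' deposited table. The tile at 491 bp, with 3.56 percentage points, has the smallest q of a positive shore tile (2.08e-49) in the authors' deposited table. Tiles that overlap 20b had a mean of -0.25. The nearest listed gene of 20a and 20b, at 24723 and 28087 bp, is described as transmembrane protein 60. RefSeq places the gene of that name on another chromosome, so the assignment is reported as uncertain.

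Other large shore values lay on chromosomes 13, 3, 9 and 5. The authors' deposited table gives the largest negative shore value, -6.40 percentage points (q = 5.15e-09), 1367 bp above the island at chr13:116910-117334. All 17 flanking tiles of that island were negative, with a shore mean of -3.04 and a shelf mean of -1.90 percentage points. The largest positive shore value in the authors' deposited table is 5.76 (q = 2.38e-08), 615 bp below the island at chr3:21315415-21316871. Its upper side has 1 tile, at -1.08 in the authors' deposited table, which overlaps another island, chr3:21317310-21317785. Beside the island at chr9:44175-44971 all 5 tiles lay between -4.45 and -4.02 percentage points. The one at 30 bp has -4.40 (q = 1.49e-55) in the authors' deposited table, the smallest q of any negative shore tile.

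On chromosome 5 neighbouring islands at chr5:120078789-120079256 and chr5:120081477-120081885 faced each other across a gap of negative tiles. The 7 tiles above the first lay between -4.36 and -1.88 percentage points and the 6 tiles below the second between -3.52 and -0.91. All 13 had a q under 0.05. The tile with -4.36 (q = 1.73e-08 in the authors' deposited table) was the fifth of the largest negative shore values by island. No gene was listed in the table within 100 kb of the islands named on chromosomes 13, 3, 9 and 5.

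Among the shelves, chromosomes 29, 3, 13 and 16 carried the remaining large values. Above the island at chr29:24757-25993 the difference reached -4.25 percentage points at 2108 bp (q = 2.19e-38, the smallest of any negative shelf tile) in the authors' deposited table. From there it returned to positive values, the largest being 1.11 (q = 0.000792) at 3408 bp in the authors' deposited table. In the shore of the same island the largest positive value was 2.59 (q = 0.0116), at 1208 bp, in the authors' deposited table. Along the 3300 bp of 29 overlapping tiles there the sign therefore changed, with 20 tiles negative. The tiles that overlap this island had a mean of 0.52.

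On chromosome 3, the shelf tile 2253 bp below the island at chr3:21078253-21078771 is at 6.65 percentage points per the authors' deposited table (q = 1.07e-09), and values were lower nearer the island, with 1.42 at 1953 bp. Above the island at chr3:21317310-21317785 the 5 shelf tiles lay between 3.02 and 3.48 percentage points, the largest at 2416 bp (q = 1.09e-07 in the authors' deposited table). Its single shore tile had -0.45 in the authors' deposited table (q = 0.350, not under 0.05). The shelf of the island at chr13:157300-157869 reached -3.64 (q = 0.00170) at 3200 bp in the authors' deposited table. That of chr13:116910-117334 reached -2.86 (q = 0.00267) at 3610 bp in the authors' deposited table.

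The island with the most tiles, chr16:184347-184782, had values of both signs at moderate size. Its 41 tiles lay between -3.59 and 2.23 percentage points, and 28 had a q under 0.05, 25 of them negative and 3 positive. The mean was -0.39 on the lower side and -1.58 on the upper side. Shelf values reached -2.85 at 3319 bp above it and 2.23 at 2547 bp below it in the authors' deposited table, and 9 tiles that overlap the island had a mean of -2.77.

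Within islands that have both classes, shelves were not regularly the larger. Of these 11 islands, 9 had shore and shelf means of one sign, and in 7 the shelf mean was the larger in size. The 2 with opposite signs lie on chromosome 3. At chr3:21317310-21317785 the single shore tile had no q under 0.05. At chr3:21311269-21312472 the tiles with a q under 0.05, 1 in each class, had -1.71 in the shore and -2.02 in the shelf. Tiles with a q under 0.05 in both classes were found for 9 islands, and the shelf mean of all tiles was the larger in size in 6 of them. Over tiles with a q under 0.05, the largest gaps between shore and shelf were found on chromosome 3 at chr3:21078253-21078771 (1.42 and 4.98 percentage points), for 20a (1.98 and 5.50), for 25b (-3.04 and -6.03) and on chromosome 29 at chr29:5764212-5764696 (-3.73 and -2.29). The last rests on 1 tile in each class. In the first 3 of these the shelf stood further from 0 than the shore, and in the last the shore did.

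**Figure D4:**
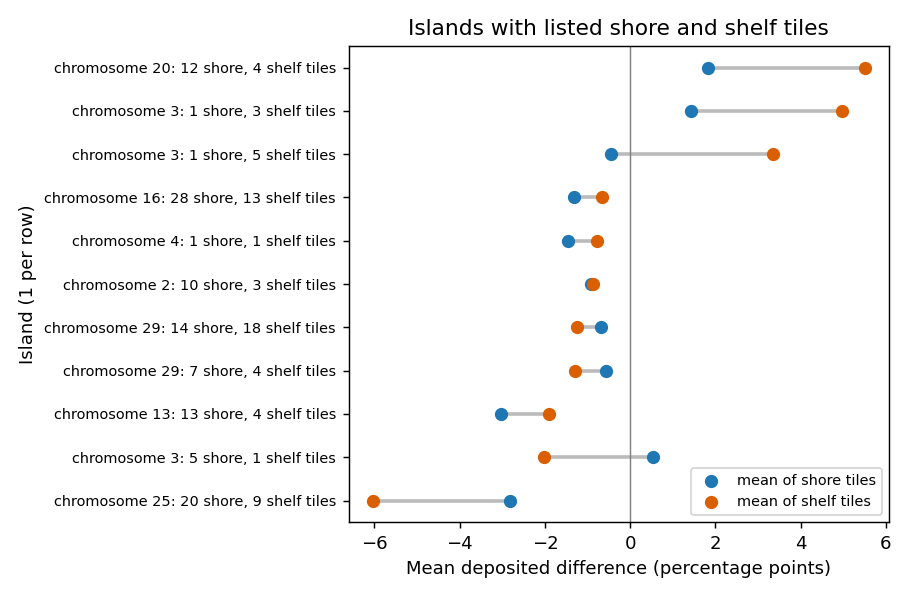
Mean deposited difference (percentage points) of the shore tiles and of the shelf tiles of each of the 11 islands with both, 1 island per row, with the number of tiles behind each mean. The longest lines are those of 20a, of chromosome 3 islands and of 25b, and 2 islands of chromosome 3 have shore and shelf means of opposite sign. The means are over all listed tiles, whatever their q-value.

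Flanks and islands were compared in the 38 islands that also had a listed tile overlapping them. A tile counted as overlapping when it shared any base with the island. It can therefore lie mostly in the flank and share bases with flanking tiles. The mean difference of the flanking tiles and that of the overlapping tiles had one sign in 26 islands and opposite signs in 12. The flank mean was the larger in size in 19 of the 38. The median sizes of the means were 0.634 percentage points for flanking and 0.598 for overlapping tiles. Over tiles from all places the medians had been 1.04 for shores, 2.08 for shelves and 0.457 for overlapping tiles. The widest gap beyond 500 kb was that of chr11:106404547-106405735, with a flank mean of -1.95 and an overlapping mean of 5.02, from 2 tiles each. These overlapping tiles extend mostly below the island's start and share bases with its flanking tiles.

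**Figure D5:**
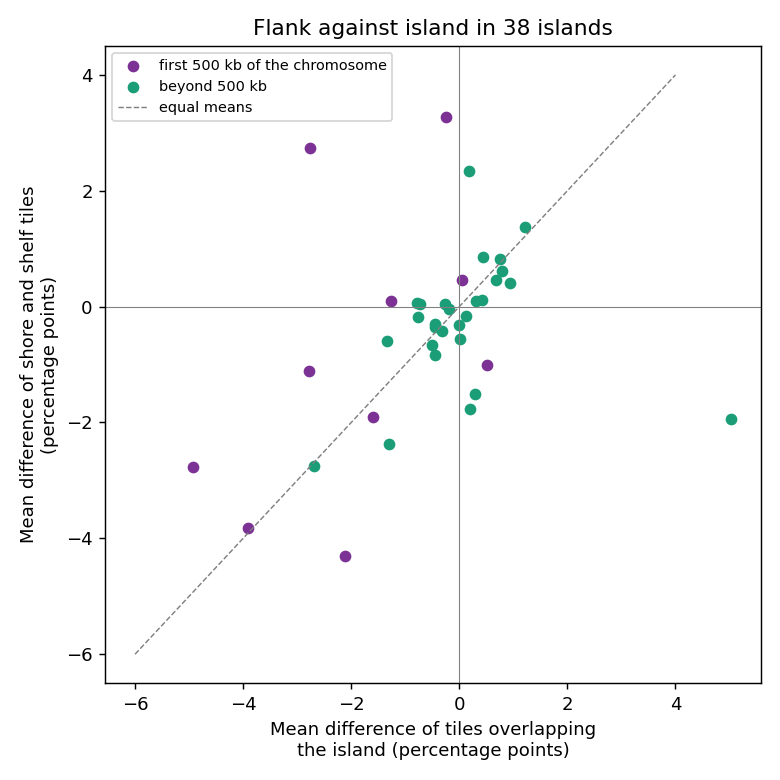
Mean deposited difference (percentage points) of shore and shelf tiles against that of tiles overlapping the same island, for 38 islands, each a point, coloured by place on the chromosome. Points off the dashed line of equal means include 20a at -2.76 and 2.74, and 20b at -0.25 and 3.27.

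The sides of an island did not always share a sign. Of 9 islands with tiles on both sides, 5 had side means of one sign and 4 of opposite signs. Of the latter, chr3:21315415-21316871 and chr2:121571589-121576022 have 1 tile on each side. The upper tile of the former overlaps another listed island, and that of the latter had no q under 0.05. At chr3:21311269-21312472 none of the 4 upper tiles had one, and the remaining island is 25a. Over all shore tiles with a q under 0.05, 45 of 82 on the lower side (54.9%) and 102 of 120 on the upper side (85.0%) were negative. In shelves these were 9 of 18 and 43 of 53. The share over all such autosomal tiles outside the left-out stretches was 71.3%, and over all listed tiles 77.8%. Lower and upper refer to the coordinates and not to the direction of a gene, and most islands have listed tiles on one side. Of the 37 positive shore tiles with that q on the lower side, 17 lie below 25a and 11 below 20a.

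Of the 87 islands, 49 had at least 1 flanking tile with a q under 0.05. These tiles were all negative in 30 islands, all positive in 14 and of both signs in 5. Averaged by island, 50 islands had a negative and 37 a positive mean, and the median size of the mean was 0.561 percentage points. It was 2.21 for the 13 islands of the first 500 kb and 0.495 for the 74 others.

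Gene features were listed within 100 kb of 17 islands, from 13 genes, and for 70 islands none was. Of the 13 genes, 6 had a symbol, 3 a description alone and 4 no name. Gene lists were matched on symbols, so genes without one could not be found by them. NKX2-1, a homeobox transcription factor of lung, thyroid and forebrain development, was the only neighbour found from 4 gene lists (developmental transcription factors 1, germline and sperm 0, imprinted 0, chromatin and methylation 0). Its coding sequence overlaps the island at chr21:46702502-46706710, and the single flanking tile is listed at 0.09 in the authors' deposited table (q = 0.224, not under 0.05). USP3, a deubiquitinase of histones, has a 5′ UTR in the island at chr10:46511957-46513186, and the shore tile 15 bp from it has 0.34 in the authors' deposited table (q = 0.150, not under 0.05). CDKN2B, an inhibitor of the cell cycle, has coding sequence in the island at chr8:22084886-22085320, and the shore tile has -0.36 in the authors' deposited table (q = 0.206, not under 0.05). POLR2B, a subunit of RNA polymerase II, lies 599 bp from the island at chr6:72359764-72361115, whose shore tile has 0.29 in the authors' deposited table (q = 0.00271). CA10, of the carbonic anhydrase family, has an intron 148 bp from the island at chr19:1418203-1419452. Its 3 shore tiles had a mean of -0.48 percentage points, and none had a q under 0.05. PCDHA13, a clustered protocadherin, lies 40679 bp from an island whose 3 shore tiles had a mean of 0.69 percentage points, 2 of them with a q under 0.05. A gene described as ubiquitin carboxyl-terminal hydrolase 17-like protein 6, of a multicopy family and therefore uncertain, overlaps the island at chr4:119842511-119845868, whose 2 shore tiles, both with a q under 0.05, had a mean of -2.75 percentage points.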

How the data were processed

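The authors' deposited table gives, per tile, a methylation difference with its p-value and q-value. The difference is a signed score on a scale of percentage points, per the file headers, which carry methylKit's column names. Tools in the submitters' processing notes are methylKit, Bismark and Trimmomatic, without settings, and the builds are ARS-UCD1.2 and bosTau9. Test, coverage minimum and direction of subtraction: not given in the sources used here. No column belongs to a single sample (0 unmatched), so the 12 samples enter through the authors' comparison of low BFI and high BFI, and the depth is unknown. If the test did not allow for spread between samples, q-values would be too small; this was not tested.

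Distances run from tile edge to the edge of the island in the deposited annotation, as coordinate differences. The rule and its counts were tested on simulated data. Counts, shares, medians and means were computed, with no new test, in Python 3.11.15, NumPy 2.4.6, pandas 2.3.3, SciPy 1.17.1 and matplotlib 3.10.9. The shore and shelf rule, thresholds and lists were chosen with earlier results of these data known. Named regions are, by class, the 5 islands with the largest difference of each sign at q under 0.05, the smallest q of each sign, the 5 islands with the most tiles, the 4 widest gaps between shore and shelf, and the tiles next to the limits. Neighbour genes come from the features of the deposited table (1040 exons without a gene ID were not used). Symbols were assigned by hand and checked against RefSeq (ARS-UCD2.0) for the chromosome. Islands at the genes with a symbol, and chr11:106404547-106405735, were named after their values were seen. Alternatives changed thresholds, adjustment, distance, overlap and the stretches kept.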

Additional observations from a re-analysis of the deposited data

How the results depend on the processing

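Of 100 values recomputed under alternatives, 74 stayed within the range set by the main value (1.5 times for counts, otherwise its 95% binomial interval) and 26 moved. The interval treats tiles as independent, though 309 of the 413 share bases with the member tile before them. Staying within it is thus a description and not a test. No tile reached 10 percentage points in either class under any alternative that kept this minimum. Since no shore or shelf tile had that size at any q-value, alternatives that only dropped tiles or changed the q-value could find none. Such forced values are among the 74 that stayed. Only keeping the left-out stretches or chromosome X could have added a tile. At 8 percentage points 4 shelf tiles passed, and at 4 percentage points 26 shore tiles passed in place of 8 at 5. The numbers of tiles past 5 percentage points (8 shore, 10 shelf) became 4 and 3 among tiles sharing no base, 1 and 1 with the nearest tile per island, 3 and 5 without chromosome 25. With alternatives chosen after seeing the data they were 1 and 2 without the first 500 kb and 3 and 5 without the 4 islands with the most tiles. The share of shore tiles with a q under 0.05 (61.4%) moved to 51.1% at a q under 0.01, 53.5% with Benjamini-Hochberg adjustment of the deposited p, 52.9% with tiles sharing no base, 39.3% with the nearest tile per island, 42.3% without the first 500 kb and 53.8% without the 4 islands. That of shelf tiles (84.5%) moved to 70.2% at a q under 0.01 and 69.0% with Benjamini-Hochberg adjustment. The median size in shores (1.04) moved to 0.788 with tiles sharing no base, 0.465 with the nearest tile per island, 0.844 without chromosome 25, 0.570 without the first 500 kb and 0.791 without the 4 islands. The median size in shelves lay between 1.77 and 2.16 under all alternatives run. The negative share in shores moved to 79.2% without the first 500 kb. In all these the cause was not tested. No paired analysis was possible because the groups share no sample numbers and the table has no columns per sample.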

Other observations

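Islands with listed shelf tiles were shorter than islands with shore tiles alone. Their median length was 522 bp over 14 islands, against 982 bp over 73, and the median ratio of observed to expected CG content in the deposited annotation was 0.90 and 0.86. Islands of the first 500 kb had a median ratio of 0.78 (13 islands) and those beyond it 0.87 (74 islands). Over all 87 islands the ratio ranged from 0.62, at 25b, to 2.14, at an island on chromosome 11 from 26490942 to 26491358, whose 4 flanking tiles had a mean of -2.44 percentage points and a q under 0.05 each.

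The tiles formed 107 runs of overlapping or adjoining tiles on one side of an island, of which 32 were single tiles. Of the 75 runs with 2 or more tiles, 58 held 1 sign. The longest run of 1 sign was that above 25b, with 24 negative tiles over 3300 bp, followed by the 18 positive tiles over 2200 bp below 25a. For 309 of the 413 tiles the deposited q-value was lower than the deposited p-value, and 23 tiles had a q under 0.05 with a p that was not. In 6 tiles the difference and p-value equalled those of the overlapping tile before them.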
